A study of Homo sapiens with 2 samples.

Results

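The mERG peaks whose centres fell in coding exons made up 324 of the 18070 peaks found by chromatin immunoprecipitation and sequencing (ChIP-seq) in VCaP cells (1.79%, Wilson 95% interval 1.61 to 2.00%). They were taken as the peaks that the deposited annotation places in the class exon, and they are called exon peaks here. VCaP is a human prostate cancer line that carries the TMPRSS2-ERG gene fusion and so makes the transcription factor ERG at a high level. The antibody was raised against mERG, the form of ERG that the methyltransferase EZH2 has methylated. The series held 1 mERG ChIP library and 1 control library from untreated cells of this line in regular growth medium, and the labels name the control as input in one field and as IgG in another. Peaks were called once on that pair, so no value here has a replicate, every test compares peaks within this list and not conditions, and the read depth is unknown from the list. Intervals cover counting error only.

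ERG belongs to the ETS family, whose members bind short DNA sites built around the bases GGAA and are best known for acting from promoters and enhancers. EZH2 is the enzyme of the Polycomb complex PRC2, which methylates histones and represses genes, and in this study it was examined as an enzyme that modifies ERG itself. Coding exons are short stretches between long introns, so a peak over an exon usually takes in intron as well. The annotation reads only the base at the peak centre, gives promoters and transcript ends precedence over exons, and keeps untranslated regions in classes of their own. All 324 centres lay in a coding exon of the GENCODE annotation, and the exon number was the same there for 313 of 323 peaks. In comparison, 15830 peaks (87.6%) had their centre in an intron, and these intron peaks served as the reference.

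Exons under the strongest exon peaks are shown to let the site be read. Only exons short enough to print whole, and coding throughout, are given, in the direction of transcription from the GRCh37 (hg19) reference, with 20 bases of intron on each side. Capitals mark the exon.
E2F3 exon 3, chr6:20481417-20481676, plus strand: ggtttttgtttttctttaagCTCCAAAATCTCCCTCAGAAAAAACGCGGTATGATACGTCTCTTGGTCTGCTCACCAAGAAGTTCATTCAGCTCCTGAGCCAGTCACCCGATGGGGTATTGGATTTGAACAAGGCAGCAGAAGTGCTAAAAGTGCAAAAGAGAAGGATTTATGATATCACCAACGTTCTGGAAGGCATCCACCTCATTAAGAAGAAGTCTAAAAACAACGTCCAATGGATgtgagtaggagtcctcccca
CHKA exon 2, chr11:67864466-67864617, minus strand: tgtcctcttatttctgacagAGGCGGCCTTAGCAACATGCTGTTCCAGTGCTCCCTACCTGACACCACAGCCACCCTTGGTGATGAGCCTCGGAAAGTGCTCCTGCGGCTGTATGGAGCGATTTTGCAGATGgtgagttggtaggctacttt
UBE2Q2 exon 5, chr15:76165749-76165929, plus strand: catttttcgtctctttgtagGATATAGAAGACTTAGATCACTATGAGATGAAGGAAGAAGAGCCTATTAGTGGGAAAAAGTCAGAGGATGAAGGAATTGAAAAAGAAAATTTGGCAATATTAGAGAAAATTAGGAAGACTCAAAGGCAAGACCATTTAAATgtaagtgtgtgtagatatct
SKIC3 exon 14, chr5:94861271-94861397, minus strand: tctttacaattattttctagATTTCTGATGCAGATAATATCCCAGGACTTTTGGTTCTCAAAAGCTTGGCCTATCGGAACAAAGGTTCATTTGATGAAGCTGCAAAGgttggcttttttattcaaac
NF1 exon 50, chr17:29677181-29677356, plus strand: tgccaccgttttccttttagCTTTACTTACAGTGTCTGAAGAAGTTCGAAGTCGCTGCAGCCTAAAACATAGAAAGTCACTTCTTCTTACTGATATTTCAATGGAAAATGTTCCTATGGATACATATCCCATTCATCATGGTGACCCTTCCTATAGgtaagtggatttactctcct
The first 4 belong to the strongest exon peaks of the list. NF1 is shown because its gene carried more exon peaks than any other.

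The strongest peak of the whole list was an exon peak. It spanned chr6:20476407-20486476, a width of 10069 bp, with a score of 592.2, and its centre fell in exon 3 of 7 of E2F3, a transcription factor gene of the cell cycle. The score is the value of the MACS peak caller, taken here as −10 times the log10 of its p-value, though the MACS version is not given. Coding sequence made up 4.88% of this peak, and the list named it for CDKAL1, whose start site was nearest at -53247 bp. The second highest score among exon peaks, 259.1, belonged to exon 3 of 9 of RTN3, a reticulon of the endoplasmic reticulum, where a peak of 7774 bp on chromosome 11 covered the whole exon of 2331 bp. These were the only exon peaks among the 100 highest scores of the list.

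The next scores were much lower and lay close together. CHKA, the choline kinase that starts phosphatidylcholine synthesis, had a peak of 145.3 over exon 2 of 11, and UBE2Q2, a ubiquitin-conjugating enzyme, one of 135.3 over exon 5 of 13. FAM13B, a protein with a GTPase-activating domain, followed with 128.6 at exon 3 of 23, and SKIC3, a subunit of the SKI complex of RNA decay that the list calls TTC37, with 113.8 at exon 14 of 43. The chromatin genes NSD3, a histone methyltransferase, and KANSL1, a scaffold of a histone acetyltransferase complex, had scores of 105.9 in exon 2 of 10 and 102.5 in exon 3 of 16. AKAP13, an anchor of protein kinase A, reached 100.4 in exon 9 of 37, and ABHD13, a gene of the hydrolase fold family, reached 99.26 in the last of its 2 exons. By width, ABHD13 came after E2F3 and RTN3 with 3128 bp, before NF1 exon 21 with 2195 bp and CHKA with 2067 bp. At the other end stood exon 5 of IBTK with 33.02, and EVI2A exon 2 and BTBD10 exon 8 with 33.03 each, next to the lowest intron score of 33.01.

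Across the class, the score ran from 33.02 through a median of 40.6 to 592.2, against a median of 41.2 in introns. An exon peak was above the intron median in 153 of 324 cases (47.2%) and an intron peak in 50.0%, a difference that did not pass Fisher's exact test (odds ratio 0.895, 95% interval 0.718 to 1.12, p = 0.340, adjusted p = 0.374). All adjusted p-values of exon against intron are Benjamini-Hochberg over 7 two-sided tests. At a score of at least 50, 67 exon peaks remained (20.7%, interval 16.6 to 25.4%), against 25.0% of all peaks and 26.2% of intron peaks. Exon peaks were narrower, with a median of 373.5 bp against 403 bp. Above the intron median width lay 43.2% of exon peaks and 49.98% of intron peaks (odds ratio 0.761, interval 0.610 to 0.951, Fisher's exact adjusted p = 0.0256). The wide tail showed no such difference in shares, as 19 exon peaks (5.86%) exceeded 1 kb, beside 5.76% of all peaks and 5.81% of intron peaks. Score and width rose together within exon peaks (Spearman correlation 0.495 over 324 peaks, as a description) and within intron peaks (0.578). In the strongest 50% of the list the score difference passed (odds ratio 0.682, Fisher's exact p = 0.0197). It also passed with 1 peak per gene and class, which keeps the strongest of each (odds ratio 0.482, Fisher's exact p = 1.45e-08). This choice favours introns, as 252 of 283 genes had a single exon peak whereas many had several intron peaks. That setting therefore cannot show that exon peaks are weaker. The width difference no longer passed in either setting (0.757 and 0.790), and at a score of at least 50 it had turned (odds ratio 1.03).

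Compared with the 2239 intron peaks of the same genes as 1 pool, exon peaks were both weaker and narrower. Those intron peaks had a median score of 42.7 and a median width of 488 bp. Of exon peaks, 40.4% exceeded the median score of these intron peaks (odds ratio 0.679, Fisher's exact p = 0.00132) and 31.2% exceeded their median width (odds ratio 0.457, Fisher's exact p = 3.01e-10). Genes with many intron peaks weigh most in this comparison. Gene by gene it was close to even. Of the 222 genes that had both, the median exon score was below the median intron score in 116 and the median exon width below the median intron width in 110. In 42 of those 222 genes an exon peak was the strongest of the gene.

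The 324 exon peaks lay in 283 genes, which are 7.84% of the 3609 genes with a peak in an exon or an intron. An intron peak was also present in 222 of the 283 (78.4%), and 61 had none. Exon peaks of those 61 genes had a median score of 37.7 and reached 99.26 in ABHD13, against a median of 40.9 in the genes with both. A single exon peak was found in 252 genes, 24 genes had 2, 5 genes had 3, NIPBL had 4 and NF1 had 5. Genes with more than 1 held 72 peaks (22.2%).

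NF1 encodes neurofibromin, a protein that switches off Ras,, and is a tumor suppressor gene. Its 282.7 kb on chromosome 17 (chr17:29421995-29704693) carried 5 exon peaks and 81 intron peaks. The exon peaks lay at exons 21, 38, 39, 41 and 50 of 58, with scores of 76.87, 55.83, 39.98, 39.00 and 75.15, and spanned 121.1 kb. Their median of 55.8 stood beside a median of 50.2 for the intron peaks of the gene, which ran up to 143.5. None of the 5 was named for NF1, since OMG and EVI2A, short genes inside one of its introns, had the nearer start sites. EVI2B lies there too, and no peak of NF1 was named for it. The list gave exon 21 to OMG and the other 4 exons to EVI2A, and of all 86 peaks it named 42 for NF1, 24 for OMG and 13 for EVI2A. EVI2A also had the exon peak of its own named above, and OMG had one in exon 2 of 2 with a score of 51.18, so that these nested genes belong to the class as well.

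The remaining genes with several exon peaks fell into those whose peaks were spread over the gene and those with a single long exon. NIPBL, which loads cohesin on chromatin, had peaks at exons 2, 10, 12 and 45 of 47 with scores of 34.42 to 46.36 over 107.2 kb. ACACA, the acetyl-CoA carboxylase of fatty acid synthesis, had exons 13, 40 and 50 of 56, at 34.12 to 44.7, beside 46 intron peaks. BLMH, the peptidase bleomycin hydrolase, had exons 4, 7 and 11 of 12, and exon 7 reached 99.04. NLK, a kinase that acts on Wnt signalling, had exons 5, 9 and 11 of 11, at 45.33 to 54.7, and NSD3 had 3 peaks between 36.81 and 105.9. RTN4, the reticulon known as Nogo, instead had 3 peaks within 1.28 kb, all in exon 3 of 2400 bp, at 34.42 to 45.45. Pairs in a single exon were also found in SETD2 exon 3 (4367 bp), NKTR exon 13 (2883 bp), ZHX1 exon 3 (2850 bp) and MARVELD2 exon 2 (1585 bp), none of them above a score of 48.42. The others with 2 were AKAP13, ANKRD17, ATAD5, BRWD1, CTNNAL1, DCAF13, ELAPOR1, FAM13B, FASTKD3, HERC1, IBTK, ITSN1, KDM1A, MED13L, RB1CC1, RNF103, SKIC3, TAF2, UTRN and WDFY3. ELAPOR1 and IBTK stood apart among these in that neither had an intron peak, and their scores stayed at 34.32 or lower.

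Most exon peaks were in internal exons, which also held most of the coding length. Of the 324, 282 were internal (87.0%), 40 lay in the last exon (12.3%), 1 in a first exon and 1 in a gene of a single exon. Internal exons held 87.2% of the coding length of the same transcripts, last exons 9.67% and first exons 3.15%. The single first exon was that of LRRC37B (score 36.25), and the gene of a single exon was TAS2R3, a bitter taste receptor (33.71). Since the promoter class reaches into the start of a gene, first exons could lose peaks to it, which was not tested. When the exon order of each transcript was cut into 4 equal parts, the first part held 79 peaks, the second 78, the third 61 and the last 105 (32.5%). The last part takes in all 40 peaks of last exons. No share of exons or of coding length was computed for the parts, so no excess can be read from these counts. The transcripts had a median of 17 exons, with a range of 1 to 89.

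The exons under the peaks were longer than the other exons of the same transcripts, with a median of 168 bp against 133 bp, and 216 of 323 (66.9%) exceeded the median of their own transcript. A longer exon also offers more bases for a centre to fall on, and the part of this in the difference was not tested. Exons were then sorted by coding length over all genes with a peak, and the share of peaks was set beside the share of bases. Coding exons over 1000 bp held 13.4% of the coding length and 43 peaks (13.3%). Those of up to 100 bp held 14.9% and 46 peaks (14.2%), and those of over 150 to 300 bp held 33.3% and 112 peaks (34.7%). The shares lay further apart at over 100 to 150 bp, with 26.0% and 94 peaks (29.1%), and at over 300 to 1000 bp, with 12.4% and 28 peaks (8.67%). The density ran from 27.2 peaks per Mb (exact Poisson interval 18.1 to 39.4) at over 300 to 1000 bp to 43.4 per Mb (35.1 to 53.1) at over 100 to 150 bp. These intervals overlap. The whole exon lay inside the peak in 206 of 323 cases (63.8%), and 49 peaks (15.2%) lay inside their exon. Coding sequence made up a median of 43.3% of an exon peak, with a range of 4.88 to 100%, and reached at least 50% of it in 143 peaks.

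Per length, exon peaks were less dense than intron peaks over all coding genes, and the ratio depended on the genes taken. Over the length of all coding genes there were 9.19 exon peaks per Mb of coding exon (exact Poisson interval 8.21 to 10.2) and 13.5 intron peaks per Mb of intron. The intron value counts all 15830 intron peaks, of which 15228 were placed in the coding genes with a peak, so it may be too high for coding genes. In genes with a peak in an exon or intron the values were 36.8 (32.9 to 41.0) and 36.7 (36.1 to 37.3). This set takes in genes that entered it through their exon peaks alone, which favours exons. In genes with an intron peak, a set that favours introns, the values were 30.1 (26.6 to 34.0) and 37.03 (36.4 to 37.6). In the former set, coding exons were 2.07% of the exon and intron length and held 2.08% of the peaks. Within introns the density differed with the distance from the nearest exon. Intron bases within 100 bp of an exon held 46.8 peaks per Mb (42.9 to 51.0), those over 10 kb away 22.9 (22.1 to 23.7). Coding exons thus lay below the intron just beside them and above the deep intron, with intervals that do not overlap, no test made and the same set of genes. With 1 transcript per gene in place of all, the exon value was 38.8 (34.7 to 43.3), which overlaps the interval of the nearest intron bases. With 12 intron peaks centred in GENCODE coding exons counted too, it was 38.2 (34.2 to 42.5), just short of overlap. The class exon also yields centres to promoters and transcript ends. By GENCODE position alone the exon count was 360, and the ratio over all coding genes was 0.758 in place of 0.683. The part of such labels in the gap was not tested.

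At the centre of exon peaks the bases GGAA were common. Within 100 bp of the centre, GGAA on either strand was found in 300 of 324 exon peaks (92.6%) and in 83.4% of 15821 intron peaks (odds ratio 2.48, interval 1.63 to 3.77, Fisher's exact adjusted p = 1.48e-05). All peaks had 83.7%. Over the whole peak the shares were 96.91 and 95.04%, and the difference no longer passed (odds ratio 1.64, Fisher's exact p = 0.152). Within 50 bp of the centre they were 70.4 and 61.05% (odds ratio 1.52, Fisher's exact p = 0.000656), and at a score of at least 50 the odds ratio over 200 bp was 4.12. The other coding exons of the same transcripts, in windows of the same length, had GGAA in 88.0% of 5154, and against these the odds ratio was 1.70 (1.11 to 2.59, Fisher's exact p = 0.0123 before adjustment). Most windows of this length hold this word of 4 bases, in and outside exon peaks.

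The ETS core motif was rare. It was sought as CCGGAAGT on both strands with at most 1 mismatch outside GGAA, so each match also counts under GGAA. It was found in 11 exon peaks (3.40%, interval 1.91 to 5.98%) and 2.59% of intron peaks, which did not pass Fisher's exact test (odds ratio 1.32, interval 0.720 to 2.44, adjusted p = 0.374). The other coding exons had it in 4.81% of windows and all peaks in 2.61%. Thus exon peaks lay above intron peaks and below other exons, with neither difference past the test (against other exons, odds ratio 0.695, Fisher's exact p = 0.281). Among peaks with a score of at least 50, 5 of 67 exon peaks had it (odds ratio against introns 3.10, interval 1.22 to 7.87, Fisher's exact p = 0.0298 before adjustment). In the stronger 50% by score, 9 of 158 had it (odds ratio 2.43, interval 1.22 to 4.84, p = 0.0169, Fisher's exact test). These stronger peaks were compared with introns only and not with other coding exons. The exact word CCGGAAGT was in 2 exon peaks (0.617%, interval 0.169 to 2.22%), those of INIP, a subunit of a single-stranded DNA binding complex, and AZIN1, an inhibitor of antizyme, and in 3 of 15821 intron peaks (0.0190%, 0.00645 to 0.0557%), with no test made. Other coding exons were not searched for the exact word. It contains the bases CG, whose median count per window was 2 in exon peaks and 1 in intron peaks. The part of sequence composition in this contrast was not tested.

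Most of the matches in exon peaks on chromosomes other than 8 are printed from GRCh37 with 10 bases on each side, on the strand of the match, in order of the score of the peak. Capitals mark the 8 bases of the match. They are shown because their windows hold the best fit to an ETS site.
MED13L, chr12:116446155-116446182, minus strand: cacccgtccaCCGGAAGGgcatgggctc
INIP, chr9:115451848-115451875, plus strand: cagcgtgatcCCGGAAGTccttattaag
UTRN, chr6:144898296-144898323, minus strand: ggatccacttCAGGAAGTtttccagatc
STRN3, chr14:31416445-31416472, minus strand: caggtatcttCAGGAAGTaggttataca
POLI, chr18:51820170-51820197, minus strand: tcaacaccttCAGGAAGTgaacagagtg
NIN, chr14:51190301-51190328, minus strand: gttgaaagctCTGGAAGTgactgaacag
NIPBL, chr5:37061034-37061061, minus strand: tgtcactccgCAGGAAGTccagtgtttg
FBXO28, chr1:224341074-224341101, minus strand: tggaaaaaaaCCGGAAGCaagttacaaa
FAM13B, chr5:137342763-137342790, plus strand: gcaccctcttCTGGAAGTtcttcaatat
INIP alone holds the full word, at 27 bp from its peak centre, in a peak with a score of 69.04. The matches of MED13L and FBXO28 lie outside the exon, and the others printed here lie within it. Scores ran from 69.37 at MED13L to 33.06 at FAM13B, whose stronger peak at exon 3 is not among them.

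**Figure D1:**
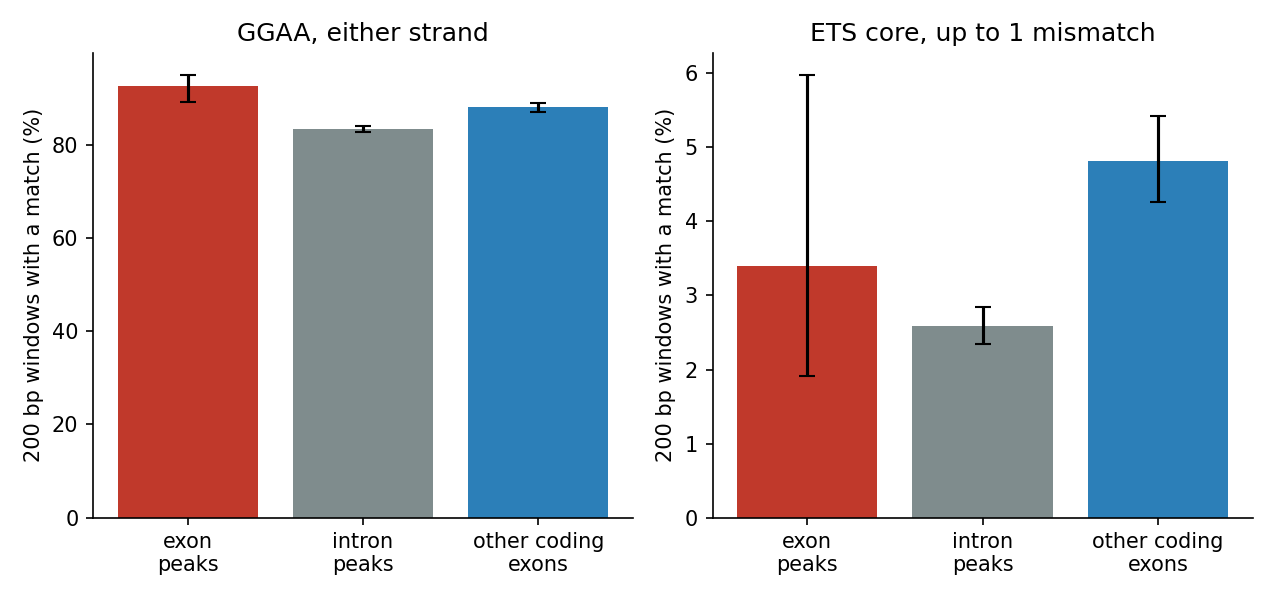
Share of windows of 200 bp with GGAA (left) and with the ETS core motif at up to 1 mismatch (right) in exon peaks (red), intron peaks (grey) and the other coding exons of the same transcripts (blue), with Wilson 95% intervals. For GGAA exon peaks are highest at 92.6%, whereas for the core motif they lie between introns at 2.59% and other exons at 4.81%.

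The GC content at the centre was slightly higher in exon peaks, with a median of 39.5% over 200 bp against 38.0% in introns. Above the intron median lay 56.8% of exon peaks and 49.9% of intron peaks (odds ratio 1.32, interval 1.06 to 1.65, Fisher's exact adjusted p = 0.0256). Over 100 bp the difference was wider, with medians of 41.0 and 38.0% (odds ratio 2.11, Fisher's exact p = 1.01e-10). Over the whole peak it turned, with medians of 37.4 and 38.8% (odds ratio 0.733, Fisher's exact p = 0.00698). Other coding exons of the same transcripts had a median of 39.0% in windows of 200 bp, and against them the exon peaks did not differ past the test (odds ratio 1.13, interval 0.900 to 1.41, Fisher's exact p = 0.303). At a score of at least 50 (odds ratio 1.41, Fisher's exact p = 0.177) and with 1 peak per gene and class (odds ratio 1.26, Fisher's exact p = 0.0638) the difference over 200 bp did not pass either. The exons themselves had a median GC of 41.6% under peaks and 42.7% elsewhere in the transcripts.

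Exon peaks carried the name of their own gene less often than intron peaks. The name in the list is that of the nearest start site. It was the gene of the exon for 201 of 318 exon peaks (63.2%) and the gene of the intron for 72.0% of intron peaks (odds ratio 0.669, interval 0.531 to 0.843, Fisher's exact adjusted p = 0.00256). The other 117 exon peaks were named for 86 protein-coding and 26 non-coding RNA genes, counted by peak, with 5 names of neither kind. The median distance to a start site, in either direction, was 28.6 kb for exon peaks and 28.0 kb for intron peaks. MED13L, a subunit of the Mediator kinase module, had both exon peaks named for MIR620, and RSF1, a chromatin remodelling factor, had its exon peak of 89.23 named for CLNS1A. Exon peaks also had fewer close neighbours. Another peak lay within 5 kb of 163 exon peaks (50.3%) and of 59.5% of intron peaks (odds ratio 0.689, interval 0.553 to 0.859, Fisher's exact adjusted p = 0.00256), with medians of 4.90 and 3.31 kb to the nearest peak. With each gene counted once per class by its strongest peak, and neighbours still sought in the full list, the shares were 46.6 and 31.8% and the direction turned (odds ratio 1.87). Against the 2239 intron peaks of the same genes, the shares were 50.3 and 78.8% (odds ratio 0.273, Fisher's exact p = 2.79e-25). Genes with many intron peaks weigh most in that pool, with 81 from NF1 alone, while 61 of the 283 genes add none. The p-value counts peaks of 1 gene as independent, so the strength of the difference cannot be read from it. At a score of at least 50, against all intron peaks, the difference did not pass (odds ratio 0.791, Fisher's exact p = 0.403).

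By chromosome, exon peaks were most numerous on 8 (33), 17 (32) and 1 (30), which also had 1379, 1090 and 1053 intron peaks. Exon peaks were 2.34, 2.85 and 2.77% of the exon and intron peaks there, beside 2.01% over the whole list. None lay on 22, X or Y, which had 151, 27 and 1 intron peaks. This share ran from 1.12% on chromosome 10 (4 peaks) to 5.51% on 18 (7 peaks), leaving out chromosomes without any. At these counts most of the intervals overlap.

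Several gene lists were set beside the 7.84% of genes that had an exon peak among those with an exon or intron peak. Of 17 DNA repair genes with a peak, 7 had one in an exon (41.2%, interval 21.6 to 64.0%). ATM and ATR, the kinases that signal DNA damage, had scores of 55.44 at exon 47 of 63 and 49.69 at exon 8 of 47. PRKDC, the kinase of end joining, had 49.13 at exon 77 of 86, and NBN, a subunit of the complex that senses breaks, had 58.54 at exon 14 of 16. BRCA2, a gene of homologous recombination, had 49.09 at exon 9 of 27 and FANCD2 of the Fanconi anemia pathway had 44.36 at exon 42 of 43. None of these scores was among the 10 highest of exon peaks. These genes are long in coding sequence, with a median of 4.24 kb for the 17, against 1.93 kb for all genes with a peak. Per Mb of coding exon they held 81.5 exon peaks (32.8 to 168), an interval that includes the 36.8 of all genes with a peak.

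Chromatin writers, erasers and remodellers had an exon peak in 12 of 54 genes (22.2%, 13.2 to 34.9%), and their median coding length was 4.35 kb. Besides NSD3, SETD2 and KDM1A these were ARID2, BRD10, CHD1L, KAT6A, KAT6B, KDM3A, KDM5B, KDM7A and KMT2A. Their density was 61.4 exon peaks per Mb (35.1 to 99.6), an interval that includes the 36.8 of all genes with a peak. Intron peaks of the same list stood at 63.0 per Mb. KDM1A, the demethylase LSD1, had 51.61 at exon 12 and 36.9 at exon 2 of 21, while KMT2A had only 33.35 at exon 3 of 36 and KAT6A 34.01 at exon 11 of 18. None of 9 Polycomb genes of PRC1 and PRC2 with a peak had it in an exon, although an exon peak of another gene was named for AEBP2. The interval of that share reaches 29.9%, so that no shortfall can be read from it.

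The ubiquitin system had 15 of 105 genes (14.3%, 8.85 to 22.2%), with a median coding length of 2.01 kb and 62.0 exon peaks per Mb (36.1 to 99.2, which includes 36.8) beside 75.9 intron peaks per Mb. UBE2Q2 had the top score, with FBXO28, HERC1, RNF103, RNF115, RNF138, TRIM33, UBE2G1, UBE2H, UBE3C, USP25, USP31, USP32 and USP45 among the others. UBE2H, also a ubiquitin-conjugating enzyme, had the second highest score of this list, 84.72 at exon 6 of 7. The list of adhesion and junction genes, taken by symbol, had 3 of 20 (15%, 5.24 to 36.0%), an interval that includes the background. These were CTNNA1, which encodes alpha-catenin, CTNNAL1, and CTNNBL1, whose product is known as a nuclear protein of the spliceosome and not of junctions. Zinc finger genes had 7 of 84 (ZNF20, ZNF236, ZNF256, ZNF264, ZNF318, ZNF621 and ZSCAN2), motors and formins 3 of 38 (KIF14, KIF3B and MYO1D) and membrane traffic 6 of 84 (RAB2A, SNX25, TBC1D30, TBC1D5, VPS13B and VPS13D), with shares of 8.33, 7.89 and 7.14% near the background. Growth kinases had 1 of 24 (MAP3K2), solute carriers 2 of 55 (SLC2A12 and SLC37A3) and RNA processing 1 of 28 (DDX52), with intervals that include the background.

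The lists nearest to ERG biology were small. Of 5 ETS factor genes with a peak, ELF2 alone had an exon peak (20%, interval 3.62 to 62.5%), at exon 2 of 6 with a score of 36.49. Of 8 genes of the androgen receptor and prostate list, NCOA2, a receptor coactivator, had one (12.5%, 2.24 to 47.1%), with a score of 64.31 at exon 4 of 23. Both intervals include the background. The 2 genes of IL6 and JAK-STAT signalling with a peak had none in an exon. The ERG/EZH2 targets deregulated in castration-resistant prostate cancer (CRPC), a list taken from the study, had an exon peak in 30 of 393 genes with a peak (7.63%, 5.40 to 10.7%), next to the background of 7.84%. AKAP13, at 100.4, had the highest score of those 30.

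Genes with more coding sequence more often had an exon peak. The share was 4.06% of 566 genes with up to 1 kb, 6.51% of 1213 with over 1 to 2 kb, 9.35% of 1102 with over 2 to 4 kb, 12.7% of 450 with over 4 to 8 kb, and 22.0% of 91 with more (14.7 to 31.5%). Genes with an exon peak had a median coding length of 2.65 kb, and genes with intron peaks only 1.89 kb. The part of coding length in the shares of the gene lists was not tested.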

How the data were processed

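The authors crosslinked VCaP chromatin, cut it with MNase and sonication, and sequenced 1 library pulled down with anti-mERG and 1 control library as 75 bp single-end reads. The submitters' processing notes name Bowtie2, Picard and HOMER on hg19, and the header of the deposited list names MACS peaks and the HOMER annotation. The MACS version and threshold are not given in the sources used here. The deposited score, which the authors kept from MACS, was taken as the log10 of its p-value multiplied by −10, with no scaling to depth. Read depth is unknown from the list.

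The 324 exon peaks were the entries of the class exon. Host genes came from the transcript named in the annotation through RefSeq symbols (GRCh38.p14, names only) for 319 peaks and from position in GENCODE release 44 lifted to GRCh37 for 5. Exon lengths and sequences came from the same GENCODE release and the GRCh37 genome. Motifs and GC were read in 200 bp around the centre, since no summit is given; 9 intron peaks off the assembled chromosomes had no window. Shares have Wilson and densities exact Poisson 95% intervals. For exon against intron peaks, two-sided Fisher's exact tests were run, with Benjamini-Hochberg adjustment over 7 tests at a threshold of 0.05. Peaks of 1 gene share their source and are not independent. The gene lists were taken by symbol, with no set test. Genes named in the text are those with the 10 highest scores, the 5 widest and the 3 lowest peaks, with several exon peaks, the strongest by exon position, with the exact ETS word, or in a gene list. RSF1 and the genes with an inexact ETS match were added after their values were seen. Some genes and matches that these rules cover are left out of the text. The members and lists were chosen with earlier results of these data known.

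Alternatives were a minimum score of 50, the stronger 50% by score, no peaks wider than 1 kb, classes from GENCODE, overlap in place of the centre, 1 peak per gene, introns of the same genes, strata of chromosome or GC (Mantel-Haenszel) and other windows. Other coding exons as the comparator and densities in genes with a peak or an intron peak were added after seeing the data. The statistics were tested on simulated data. Python 3.11.15, pandas 2.3.3, NumPy 2.4.6, SciPy 1.17.1, statsmodels 0.14.6, pysam 0.24.0 and Matplotlib 3.10.9 were used.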

Additional observations from a re-analysis of the deposited data

How the results depend on the processing

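Of 74 alternatives to the 9 results, 51 kept their direction and, where there was a test, their side of the threshold, or as counts and densities moved little, among them all those of the naming for the host gene. The number of exon peaks was 67 at a minimum score of 50, 158 in the stronger 50% of the list, 1464 when 1 base in a coding exon sufficed and 164 when 50% of the peak had to be coding. At a minimum score of 50, the odds ratio of exon against intron peaks became 1.03 for width (reversed) and 3.10 for the ETS core (now past Fisher's exact test). It became 1.41 for GC and 0.791 for a close neighbour (no longer past it). The density ratio over the length of all coding genes, with every intron peak counted, fell there from 0.683 to 0.539. In the stronger 50%, score (0.682) and the ETS core (2.43) passed the test and width (0.757) did not. With 1 peak per gene and class, which keeps the strongest of many intron peaks in a gene, score was at 0.482 and passed. Width at 0.790 and GC at 1.26 missed the test there, and a close neighbour, sought in the full list, reversed to 1.87. Against introns of the same genes score was at 0.679 and passed. Over the whole peak, GC reversed to 0.733 and GGAA was at 1.64, no longer past the test. With other coding exons as the comparator, chosen after seeing the data, GC was at 1.13 and not past the test, and the ETS core reversed to 0.695. In genes with a peak in an exon or intron and in genes with an intron peak, also chosen then, the density ratio was 1.00 and 0.813. The causes of these changes were not tested.

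No paired analysis was possible because the series has 1 ChIP and 1 control library. Without replicates, no difference here can be set against the spread between samples. Whether the MNase step, the copy number of VCaP chromosomes or the kind of control moved with exon position was not tested.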

Other observations

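Peaks classed as intron that still touched a coding exon numbered 1061 (6.70% of intron peaks), more than the exon peaks themselves. Coding sequence made up a median of 15.7% of such a peak, against 43.3% of an exon peak. Among all intron peaks, 5085 (32.1%) lay in the first intron of their transcript.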
